A study of Rattus with 27 samples.

Results

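The genes described here are 10 members of the circadian clock: the repressors Per1, Per2, Per3, Cry1 and Cry2, the nuclear receptors Nr1d1 and Nr1d2, the output factors Dbp and Tef, and the activator Clock. They were taken by name from the 14506 genes that the arrays represent with a probe of a single symbol. Each of the 10 had exactly 1 such probe, so all were measured and none was lost to a filter. The arrays came from 9 Sprague Dawley rats, with brain, white blood cells and spleen of every rat on an array each, 27 in all, taken at 6 h. In each tissue 3 arrays were from sham rats, which were anaesthetised and had the vessels separated but not blocked. The titles name the other groups model and vehicle, again with 3 rats each, and by the treatment protocol every rat outside the sham group underwent middle cerebral artery occlusion (MCAO), a rat model of ischaemic stroke. The protocol also names a group given YJ (the Yiqi Jiedu formulae) at 25 mg/kg, and no label says whether that is the model-labelled or the vehicle-labelled group. The groups keep their labels here, and no difference between them is ascribed to YJ. Brain and spleen were homogenised, so each array averages over cell types and regions, and the white cells were separated from whole blood. The rats were kept under 12 h of light and 12 h of dark; the clock time of surgery and of tissue collection, and the rats' age, are not given in the sources used here.

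The molecular clock is a loop of transcription. The proteins CLOCK and BMAL1 pair on the promoters of the Per and Cry genes, and the PER and CRY proteins then return to the nucleus and block that pair until they are degraded. A second loop runs through Nr1d1 and Nr1d2, which encode REV-ERB alpha and beta and repress Bmal1. Dbp and Tef encode related leucine zipper factors of the PAR family that carry the rhythm to output genes, and Nfil3 encodes a repressor of the same sites. Per1 is known in addition as a gene that cyclic AMP signalling, neuronal activity and glucocorticoids switch on within the hour, outside the daily rhythm.

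Values are log2 intensities from RMA, and a difference of 1 is a doubling. They ran from 1.53 to 13.49 over all probes, with array medians between 4.96 and 5.31, and arrays of the same group correlated over all probes with r between 0.976 and 0.995. Errors of differences are standard errors from limma, errors of group means are SD with n = 3 arrays, and the words rose and fell are kept for genes whose limma p, adjusted over all genes, was under 0.05. Whether the arrays of compared groups overlapped was recorded for clock genes only. It describes the arrays and is not a test, as its share over all genes was not counted. The tissues matched their labels: all 5 measured neuron markers and all 6 astrocyte markers were higher in sham brain than in sham white cells and spleen, and all 8 T cell and 5 B cell markers were lower. Among the brain arrays, those of sham rat 5 and vehicle-labelled rat 2 stood apart in cortex markers, and other marker lists that differed between brains are given with the brain results. The 3 measured cortex markers averaged -2.23 and -1.71 there relative to the sham mean, against 0.25 to 1.24 in the others. The 11 measured markers of thalamus and hypothalamus averaged 1.87 above it in sham rat 5. Results in brain are therefore also given without these arrays where that changes a call. Every sample is a mixture of cells, and fewer cells of a type cannot be told apart from less RNA per cell.

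In sham rats most clock genes stood higher in brain than in the other tissues. Of the 10 genes 7 were higher in brain than in white blood cells and 0 lower, where 26.8% of all genes were higher and 28.2% lower. Against spleen 6 were higher in brain and 0 lower (24.9% and 26.4% of all genes). Between the blood and spleen samples 4 were lower in white cells and 0 higher, against 17.8% and 16% of all genes.

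The widest differences between sham brain and both other tissues were those of Nr1d1 and the output genes Tef and Dbp; Nr1d2 came next against white cells (1.66) and Cry2 against spleen (1.10). Tef read 7.68, 7.82 and 7.55 in the brains of sham rats 3, 4 and 5, against 5.59, 5.54 and 5.41 in their white cells and 5.82, 5.88 and 6.03 in their spleens. The brain arrays lay above all others, by 2.17 ± 0.12 over white cells (adjusted p = 4.38e-08) and 1.77 ± 0.12 over spleen (adjusted p = 2.57e-07). Dbp, the other PAR factor, averaged 10.37 ± 0.28 in sham brain, 8.45 ± 0.29 in white cells and 8.81 ± 0.23 in spleen, so that brain was 1.91 ± 0.19 and 1.56 ± 0.19 higher (adjusted p = 5.45e-06 and 3.13e-05). Nr1d1 averaged 7.65 ± 0.33, 5.45 ± 0.18 and 5.83 ± 0.14 in the same order, and brain exceeded white cells by 2.20 ± 0.17 (adjusted p = 6.7e-07) and spleen by 1.82 ± 0.17. For Dbp and Nr1d1 the difference between white cells and spleen did not pass in this fit, which does not pair the tissues of a rat (adjusted p = 0.179 and 0.113). The Nr1d1 arrays did not overlap, at 5.61, 5.48 and 5.26 in white cells and 5.88, 5.94 and 5.67 in spleen. With the rat as a block Nr1d1 was lower in white cells than in spleen (adjusted p = 0.0387). Nr1d2 had a clear order in all 3 tissues: 7.98 ± 0.05 in brain, 7.15 ± 0.12 in spleen and 6.32 ± 0.25 in white cells, with each step at 0.83 ± 0.14 (adjusted p = 0.000385 and 0.000963).

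Among the repressors, Cry2 was the brain-high member. Its sham arrays read 8.27, 8.24 and 7.79 in brain, 6.87, 7.70 and 7.33 in white cells and 6.91, 7.11 and 6.98 in spleen. Brain was 0.80 ± 0.20 above white cells (adjusted p = 0.00603) and 1.10 ± 0.20 above spleen (adjusted p = 0.000756), while the first call was lost without sham rat 3 (0.50, adjusted p = 0.0885). Per3 was lower in white cells (5.22 ± 0.11) than in brain (5.87 ± 0.20, adjusted p = 0.00294) and spleen (5.79 ± 0.21, adjusted p = 0.0121), and brain and spleen did not differ beyond their spread; the second call was lost without sham rat 4 or sham rat 5 (-0.46 and -0.51, adjusted p = 0.172 and 0.0514). Per1, Per2 and Cry1 passed in none of the 3 tissue comparisons by limma, with differences between -0.20 and 0.55. Without sham rat 5, Per1 and Per2 were higher in brain than in spleen (0.66 and 0.59, adjusted p = 0.012 and 0.0385). With genes of low mean left out Per1 was higher in white cells than in spleen (adjusted p = 0.0492) and Per2 higher in brain than in spleen (adjusted p = 0.0487), the latter also after quantile normalization (adjusted p = 0.0345). Clock averaged 7.77 ± 0.07 in brain, 7.37 ± 0.05 in spleen and 6.78 ± 0.22 in white cells. It was 0.99 ± 0.13 higher in brain than in white cells (adjusted p = 5.16e-05) and 0.60 lower in white cells than in spleen (adjusted p = 0.00495). Its step from brain to spleen of 0.40 ± 0.13 (adjusted p = 0.0243) was lost without sham rat 4 or 5 (0.40 and 0.36, adjusted p = 0.148 and 0.112). The step of Tef from spleen to white cells, -0.40 ± 0.12 (adjusted p = 0.0281), was lost whichever sham rat was left out: it was -0.48, -0.43 and -0.28 without rats 3, 4 and 5 (adjusted p = 0.0661, 0.162 and 0.184).

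**Figure D1:**
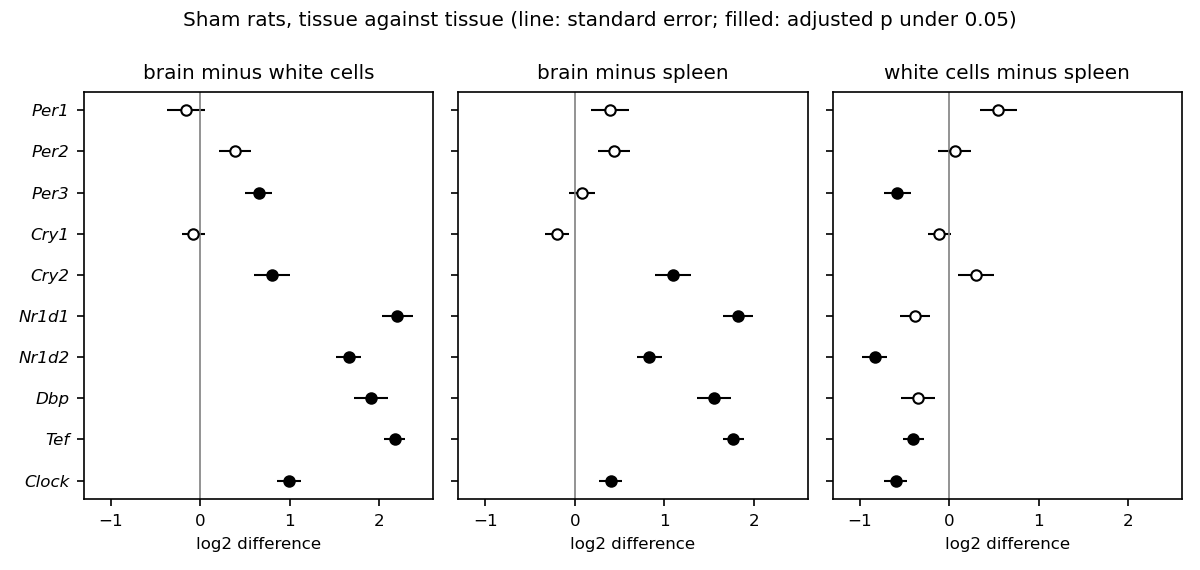
Log2 difference between tissues of sham rats for the 10 clock genes, with the standard error as a line and filled points where the limma adjusted p was under 0.05. Nr1d1, Tef and Dbp lie farthest to the right in both comparisons of brain, followed by Nr1d2 against white cells (1.66) and Cry2 against spleen (1.10), while Per1, Per2 and Cry1 have open points throughout.

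Of 19 other clock genes listed, 12 were measured, and those called between sham tissues lay in both directions. In brain 6 were higher and 3 lower than in white cells (26.8% and 28.2% of all genes), and 7 higher and 1 lower than in spleen (24.9% and 26.4% of all genes). Bhlhe41, or Dec2, a repressor of CLOCK and BMAL1, was 4.12 ± 0.24 above white cells and 2.18 ± 0.24 above spleen (adjusted p = 5.09e-08 and 1.15e-05). Npas2, which can replace Clock in the forebrain, was 2.92 ± 0.47 and 2.98 ± 0.47 higher in brain (adjusted p = 0.000245 and 0.000219). Nfil3 ran the other way, at -2.48 ± 0.29 in brain relative to white cells (adjusted p = 1.93e-05). Bmal1, the partner of Clock, was 0.79 ± 0.16 higher in brain than in spleen (adjusted p = 0.00117). Its step of 0.44 ± 0.16 over white cells (adjusted p = 0.0313) was lost without sham rat 3 or 4 (0.22 and 0.53, adjusted p = 0.207 and 0.0831) and after quantile normalization (adjusted p = 0.057).

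After MCAO the clock genes of the brain differed from sham by less than a doubling, with Per1 in the model-labelled group as the exception. Limma called 1 of the 10 in model-labelled against sham brains, Tef, which fell, where 1.16% of all genes were called and 0.0758% were called lower. It called 0 of 10 in vehicle-labelled against sham brains (0.0483% of all genes), 0 with both MCAO groups averaged (0.8%) and 0 between vehicle-labelled and model-labelled brains (0.0551%). At an unadjusted p under 0.05 the counts were 7 of 10 for the model-labelled group (14.4% of all genes), 3 for the vehicle-labelled group (9.33%), 6 for the average of both (11.3%) and 3 between the MCAO groups (14.3%).

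Tef, the output factor, read 7.68, 7.82 and 7.55 in sham rats 3, 4 and 5. The model-labelled rats 1, 2 and 3 had 7.11, 6.99 and 7.16, and 7.48, 7.35 and 7.27 were measured in the vehicle-labelled rats 2, 4 and 5. The 3 groups did not overlap, with sham highest and the model-labelled arrays lowest. Tef fell by 0.60 in the model-labelled group (SE 0.12, adjusted p = 0.0454), to 0.661 of the sham level. The difference of the vehicle-labelled group was -0.32 ± 0.12 (adjusted p = 0.417) and that of both groups averaged -0.46 ± 0.10 (adjusted p = 0.0889). The call was close to the threshold. With a single array left out it passed only without vehicle-labelled rat 2 (adjusted p = 0.0374). Without sham rats 3, 4 and 5 in turn the adjusted p was 0.0988, 0.19 and 0.0507, without model-labelled rats 1, 2 and 3 it was 0.151, 0.129 and 0.121, and without vehicle-labelled rats 4 and 5 it was 0.0743 and 0.0772, with differences between -0.66 and -0.53. Without sham rat 5 and vehicle-labelled rat 2 together it was -0.66 (adjusted p = 0.0207), and the averaged difference passed as well, at -0.55 (adjusted p = 0.0338). Dbp, its relative, lay at 10.43, 10.61 and 10.06 in sham brains. Model-labelled brains had 9.87, 10.01 and 10.02, below all of these, and vehicle-labelled brains 10.31, 10.12 and 9.82, which overlapped them. Its differences of -0.40 ± 0.17 and -0.28 ± 0.17 did not pass (adjusted p = 0.326 and 0.673).

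Per1, the inducible repressor, had the largest difference among the 10 in model-labelled brains; in vehicle-labelled brains Cry2 (0.46) and Per1 (0.44) were the highest. Sham rats 3, 4 and 5 read 7.10, 6.85 and 6.20, model-labelled rats 1, 2 and 3 read 8.01, 7.60 and 7.91, and vehicle-labelled rats 2, 4 and 5 read 7.29, 7.36 and 6.81. All model-labelled arrays stood above all sham and all vehicle-labelled arrays, and the last pair of groups overlapped. The model-labelled difference was 1.12 ± 0.24, or 2.18 times the sham level, and did not pass (adjusted p = 0.0644). It passed where all 27 arrays shared a variance (adjusted p = 0.000575) and without sham rat 5 and vehicle-labelled rat 2 together, where it was 0.87 (adjusted p = 0.0446). The vehicle-labelled difference was 0.44 ± 0.24 (adjusted p = 0.64), and between the MCAO groups Per1 was at -0.69 ± 0.24 in the vehicle-labelled brains (adjusted p = 0.264). Lists of immediate early genes and of glucocorticoid-induced genes also stood higher in the MCAO arrays. The mean of 11 immediate early genes lay between -0.81 and 0.42 of the sham mean in the sham brains themselves. It lay between 2.61 and 3.31 where the label was model and between 0.86 and 1.61 where it was vehicle. Of the 11, 9 rose in the model-labelled group and 0 in the vehicle-labelled group, where 157 and 7 of all 14506 genes rose. The mean of 12 glucocorticoid-induced genes lay between -0.09 and 0.11, 0.40 and 0.58, and 0.43 and 0.67 in the order sham, model and vehicle. Of these 4 rose and 1 fell in model-labelled brains, where 11 of all genes fell. In vehicle-labelled brains 3 rose and 0 fell, with 0 of all genes falling. Their part in the values of Per1 was not tested.

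None of the other repressors passed in brain. Per2 stood at 6.12 ± 0.27 (sham), 6.21 ± 0.13 (model label) and 6.22 ± 0.21 (vehicle label), and the 95% interval of its model-labelled difference ran from -0.28 to 0.45. Per3, the period gene with the weakest role in the loop, lay lower in all model-labelled arrays (5.56, 5.54 and 5.55) than in sham (5.79, 5.72 and 6.10), at -0.32 ± 0.12 (adjusted p = 0.291). Cry2 stood higher in both MCAO groups, against 8.27, 8.24 and 7.79 in sham. The arrays read 8.78, 8.37 and 8.63 with the model label and 8.44, 8.83 and 8.41 with the vehicle label. The differences of 0.49 and 0.46 with an SE of 0.18 did not pass (adjusted p = 0.261 and 0.454). Cry1 was at 0.14 ± 0.12 and 0.37 ± 0.12 in the model-labelled and vehicle-labelled groups (adjusted p = 0.631 and 0.373).

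The REV-ERB genes lay on opposite sides of sham in the model-labelled brains. Nr1d1 read 8.34, 8.10 and 8.21 there against 7.89, 7.78 and 7.28 in sham, and Nr1d2 read 7.33, 7.68 and 7.62 against 7.93, 7.99 and 8.02. The differences of 0.57 ± 0.21 and -0.44 ± 0.15 did not pass (adjusted p = 0.27 and 0.254). In vehicle-labelled brains the arrays of both genes overlapped those of sham, at 0.27 ± 0.21 and -0.07 ± 0.15. Clock, the activator, had the smallest model-labelled difference of the 10: its means were 7.77 ± 0.07, 7.78 ± 0.13 and 7.91 ± 0.11 in sham, model-labelled and vehicle-labelled brains, with a 95% interval from -0.24 to 0.27 for the model-labelled and from -0.11 to 0.40 for the vehicle-labelled difference.

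Marker lists of other cells and regions also varied between these brains, given here as means relative to the sham mean. The 6 measured oligodendrocyte markers averaged -0.39 to 0.32 in sham, -0.99 to 0.17 with the model label and 0.32 to 0.97 with the vehicle label. The 10 neutrophil markers averaged -0.10 to 0.09, 0.44 to 0.65 and 0.15 to 0.22 in that order, and the 7 monocyte and macrophage markers -0.02 to 0.03, 0.45 to 0.65 and -0.03 to 0.61. The 5 measured choroid plexus markers stood at 2.17 in model-labelled rat 3 and 1.07 in vehicle-labelled rat 5, against -0.16 to 0.28 elsewhere, and the 6 measured striatum markers at 1.59 in model-labelled rat 3 and 1.24 in vehicle-labelled rat 4, against -0.52 to 0.49. Of all these markers 1, of monocytes and macrophages, rose in model-labelled brains, and limma called none lower there and none in either direction in vehicle-labelled brains; at an unadjusted p under 0.05 the oligodendrocyte, neutrophil, monocyte and macrophage, choroid plexus and striatum lists held 1, 7, 2, 1 and 0 genes with the model label and 2, 1, 2, 0 and 0 with the vehicle label. Their part in the brain values of Tef, Per1 and the other clock genes, Nfil3 and Noct included, was not tested.

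**Figure D2:**
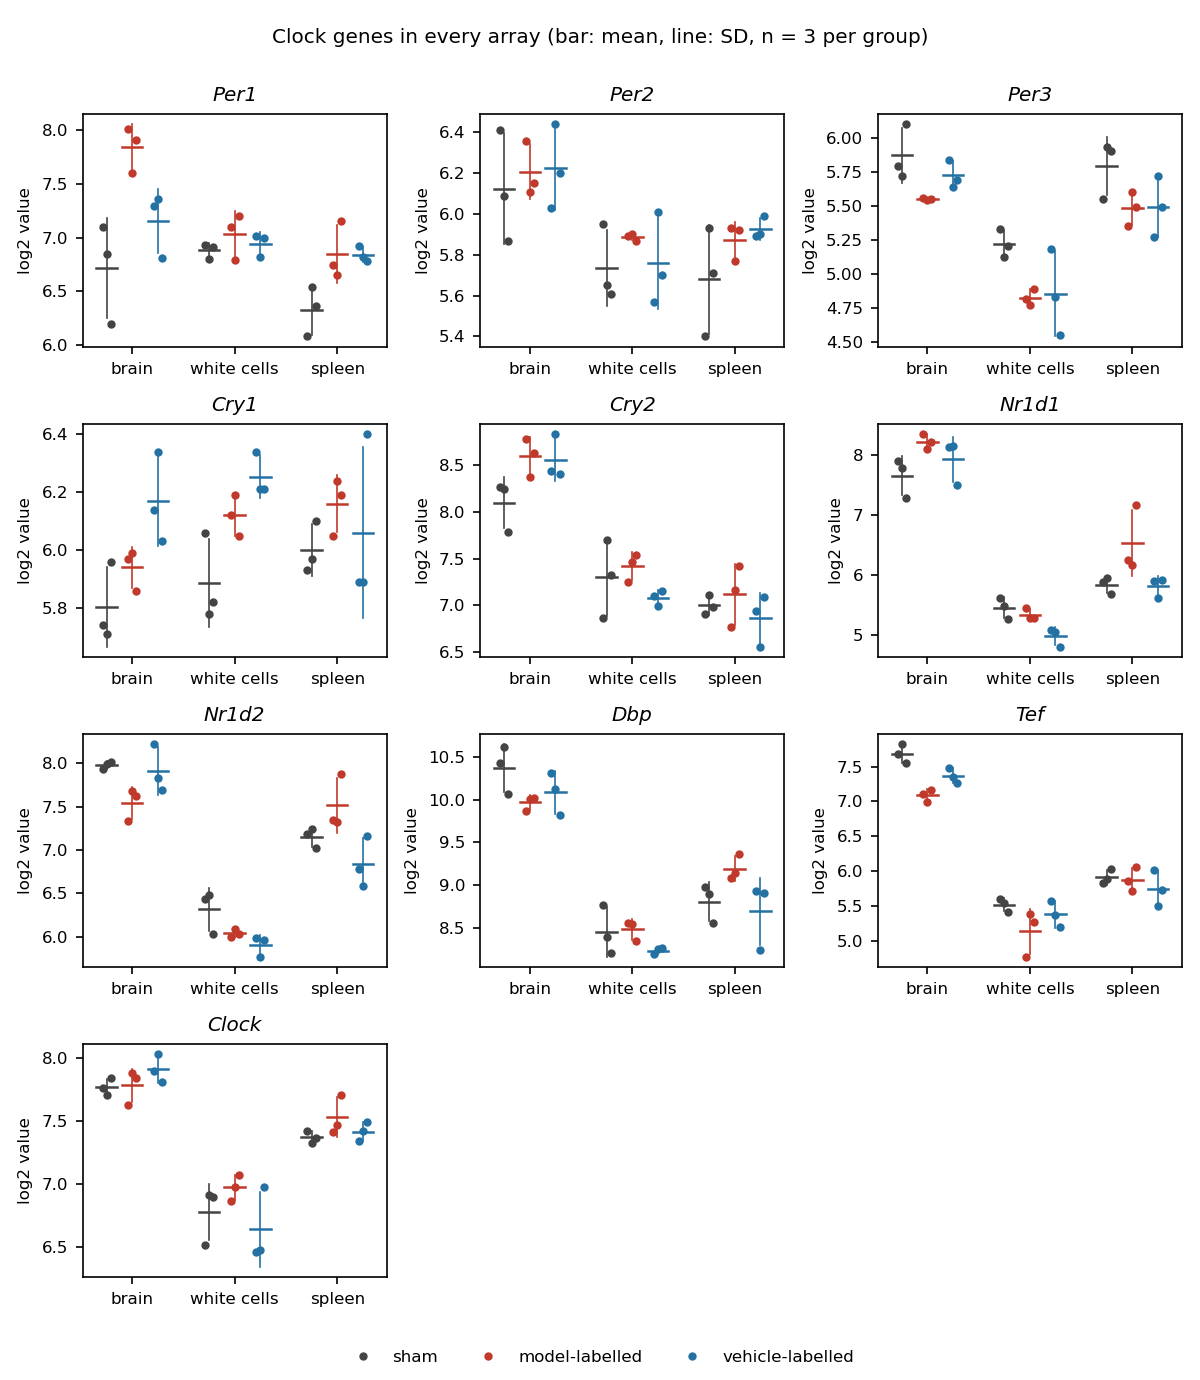
Log2 value of each of the 10 clock genes in every array, by tissue and group, with the mean as a bar and the SD as a line (3 arrays per group; each panel has its own axis). In brain the model-labelled arrays of Per1 (7.60 to 8.01) lie above all others and those of Tef (6.99 to 7.16) below all others.

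Of the 12 other loop genes, 2 rose and 0 fell in model-labelled brains, where 157 of all 14506 genes rose and 11 fell. In vehicle-labelled brains 1 rose and 0 fell, against 7 and 0 of all genes. Nfil3, the repressor that competes with the PAR factors, read 5.20, 4.94 and 4.83 in sham brains. It reached 6.84, 6.64 and 6.79 with the model label and 5.96, 6.34 and 6.11 with the vehicle label. The 3 groups did not overlap. It rose by 1.77 ± 0.14 in the model-labelled group, 3.4 times the sham level (adjusted p = 0.00065), and passed whichever array was left out, with adjusted p between 0.000352 and 0.0093. In the vehicle-labelled group it rose by 1.15 ± 0.14 (adjusted p = 0.03). That call held only without sham rat 5 or vehicle-labelled rat 2; without sham rats 3 and 4 the adjusted p was 0.106 and 0.172, without model-labelled rats 1, 2 and 3 it was 0.0669, 0.0724 and 0.103, and without vehicle-labelled rats 4 and 5 it was 0.155 and 0.178. Nfil3 is also the only one of the 12 that rose with both MCAO groups averaged, by 1.46 ± 0.12 (adjusted p = 0.00186), where 108 of all genes rose.

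Noct, which encodes the rhythmic phosphatase nocturnin, read 6.56, 6.25 and 5.75 in sham brains, against 8.13, 7.61 and 7.84 with the model label and 6.60, 7.32 and 6.41 with the vehicle label. It rose by 1.67 ± 0.27 in the model-labelled group (adjusted p = 0.0188). The adjusted p was 0.0714 without sham rat 4 and 0.1, 0.0509 and 0.0891 without model-labelled rats 1, 2 and 3. The vehicle-labelled difference of 0.59 ± 0.27 did not pass (adjusted p = 0.543). Bhlhe40, a repressor of CLOCK and BMAL1 also known as Dec1, stood at 8.79 ± 0.31 in sham brains, 9.56 ± 0.17 with the model label and 9.26 ± 0.40 with the vehicle label (differences 0.77 and 0.47, adjusted p = 0.164 and 0.556). Bmal1 was at 0.13 ± 0.23 and 0.50 ± 0.23, and Bhlhe41 at -0.21 ± 0.28 and -0.01 ± 0.28. Npas2 read 8.73, 8.41 and 6.39 in sham rats 3, 4 and 5, and the vehicle-labelled rats 2, 4 and 5 had 7.28, 8.12 and 8.07. Its lowest arrays, those of sham rat 5 and vehicle-labelled rat 2, are those with low cortex markers. Over the 12 genes the median difference of the model-labelled group was 0.14, and over the 10 clock genes 0.05, against 0.03 over all genes.

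**Figure D3:**
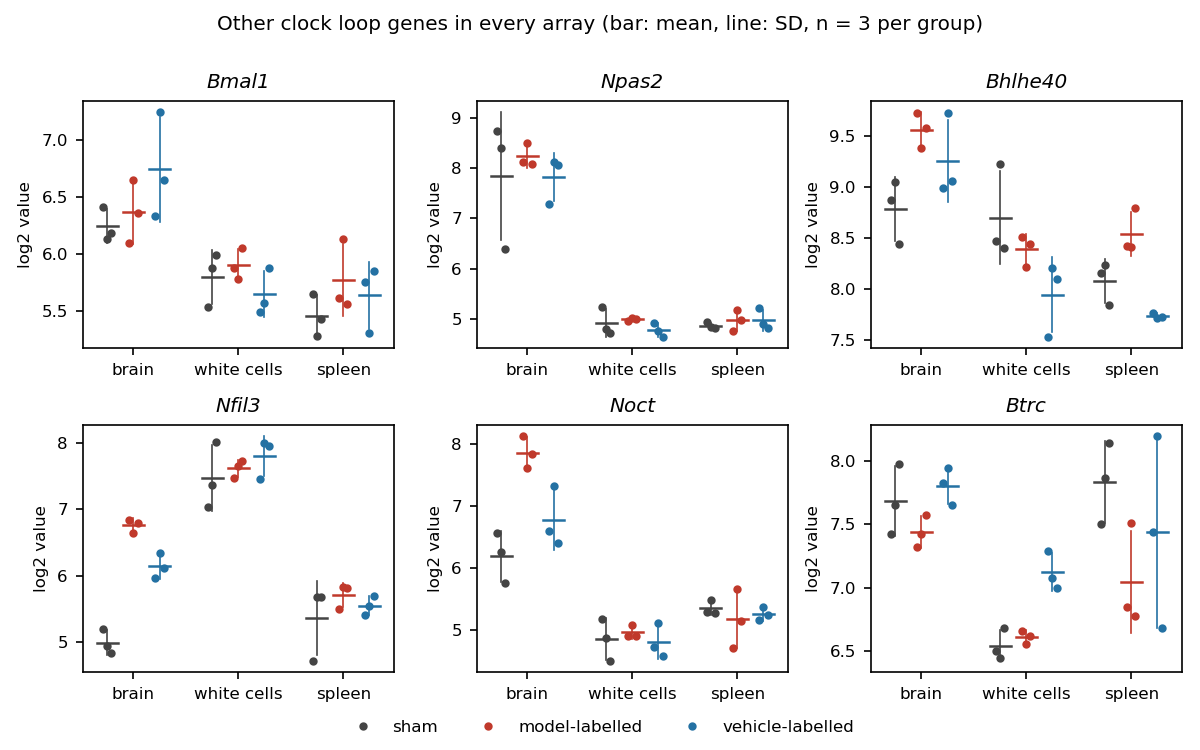
Log2 value of 6 other clock loop genes in every array, by tissue and group, with the mean as a bar and the SD as a line (3 arrays per group; each panel has its own axis). In brain Nfil3 steps from at most 5.20 in sham to at least 5.96 in vehicle-labelled and 6.64 in model-labelled arrays.

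In white blood cells none of the 10 clock genes passed by limma in any of the 4 comparisons. Of all genes 0% passed for model-labelled against sham, 2.01% for vehicle-labelled against sham, 0.931% for both groups averaged and 1.56% for vehicle-labelled against model-labelled. At an unadjusted p under 0.05 the clock genes numbered 2, 4, 4 and 1 in that order, against 6.07%, 13.4%, 9.89% and 10.9% of all genes. The REV-ERB genes were the lowest relative to sham in the vehicle-labelled group. Nr1d1 read 5.61, 5.48 and 5.26 in sham samples, 5.44, 5.27 and 5.28 in those labelled model and 5.08, 5.04 and 4.80 in those labelled vehicle. The vehicle-labelled arrays lay below all others, at -0.48 ± 0.13 of sham (adjusted p = 0.0869). Nr1d2 read 6.44, 6.48 and 6.03, then 6.00, 6.09 and 6.03, then 5.98, 5.77 and 5.96, with a vehicle-labelled difference of -0.41 ± 0.13 (adjusted p = 0.167). Without sham rat 5, which had the lowest sham value of both genes, they passed, at -0.57 and -0.56 (adjusted p = 0.0446 and 0.0348).

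Per3 and Cry1 stood on opposite sides of sham in white cells. Per3 read 5.33, 5.12 and 5.20 in sham against 4.81, 4.77 and 4.89 in model-labelled and 5.18, 4.83 and 4.55 in vehicle-labelled samples, at -0.39 ± 0.15 and -0.36 ± 0.15 (adjusted p = 0.723 and 0.299). Cry1 averaged 5.89 ± 0.15, 6.12 ± 0.07 and 6.25 ± 0.08, with 0.37 ± 0.11 in the vehicle-labelled group (adjusted p = 0.153). Per1 averaged 6.88 ± 0.07, 7.03 ± 0.21 and 6.94 ± 0.11, and its 95% interval for the model-labelled difference ran from -0.12 to 0.42. Per2, Cry2, Dbp, Tef and Clock had differences from sham between -0.38 and 0.20 in both groups, none of which passed. Over the 10 genes the median difference of the vehicle-labelled group was -0.18, against -0.06 over all genes.

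The make-up of the blood samples differed between the groups. All 9 measured erythroid markers rose in the vehicle-labelled group, with their mean 2.13 to 3.10 above the sham mean against 0.63 to 0.73 in model-labelled and -0.26 to 0.44 in sham samples. Of 10 neutrophil markers 6 rose, with a mean of 1.23 to 1.52 in vehicle-labelled, 0.07 to 0.48 in model-labelled and -0.24 to 0.23 in sham samples. Whether this moved the REV-ERB values, or those of Btrc and the other loop genes given next, was not tested. Among the other loop genes Btrc, which encodes a subunit of the ubiquitin ligase that marks PER proteins for degradation, rose in the vehicle-labelled group. It read 6.50, 6.45 and 6.68 in sham samples, 6.66, 6.56 and 6.62 in those labelled model and 7.29, 7.08 and 7.00 in those labelled vehicle. The rise was 0.58 ± 0.12 over sham (adjusted p = 0.0198) and 0.51 ± 0.12 over the model-labelled group (adjusted p = 0.0488). The first was lost without sham rat 3 or 4 (adjusted p = 0.0535 and 0.0889), without vehicle-labelled rat 2 or 4 (0.093 and 0.0658) and where all 27 arrays shared a variance (0.369). The second was lost without sham rat 4 (0.054), model-labelled rats 1, 2 or 3 (0.157, 0.183 and 0.164) or vehicle-labelled rats 2 or 4 (0.23 and 0.145), with quantile normalization (0.0775), with a variance trend (0.0548) and with all 27 arrays (0.58). Bhlhe40 read lower in vehicle-labelled samples, at 7.53, 8.21 and 8.10 against 8.47, 9.22 and 8.40 in sham (-0.75 ± 0.22, adjusted p = 0.117), and Nfil3 was at 0.14 ± 0.21 and 0.33 ± 0.21. Bmal1, Npas2 and Bhlhe41 differed from sham by -0.15 to 0.36 and did not pass.

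**Figure D4:**
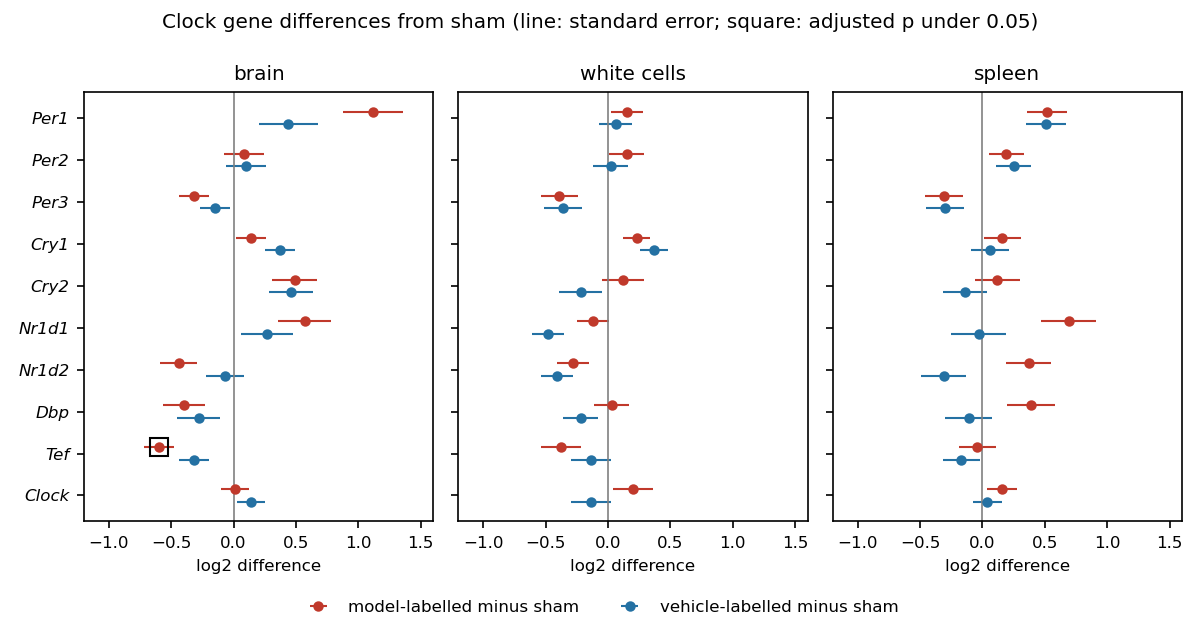
Log2 difference from sham of the 10 clock genes in each tissue, for the model-labelled and the vehicle-labelled group, with the standard error as a line and a square where the limma adjusted p was under 0.05. The only square is that of Tef in model-labelled brains, at -0.60.

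In spleen, too, none of the 10 genes passed by limma in the 4 comparisons, and hardly any gene did: 0.0414% of all genes for model-labelled against sham, 0.0483% for vehicle-labelled against sham, 0.0965% for both averaged and 0% between the MCAO groups. Unadjusted, 2, 1, 2 and 3 of the clock genes were under 0.05 in that order, against 9.5%, 9.35%, 8.16% and 12.9% of all genes. Per1 was higher in all 6 MCAO arrays than in all 3 sham arrays. It read 6.08, 6.54 and 6.36 in sham spleens, 6.74, 6.65 and 7.15 in those labelled model and 6.92, 6.82 and 6.78 in those labelled vehicle, with differences of 0.52 ± 0.16 and 0.51 ± 0.16 (adjusted p = 0.336 and 0.37). The glucocorticoid-induced list also stood apart here, with a mean of -0.06 to 0.12 in sham spleens, 0.35 to 0.69 in those labelled model and 0.29 to 0.45 in those labelled vehicle, though 0 of its 12 genes passed. The immediate early list did not, at -0.34 to 0.32, -0.08 to 0.14 and -0.33 to 0.09.

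Nr1d1, Nr1d2 and Dbp averaged higher in model-labelled than in vehicle-labelled spleens. Nr1d1 read 6.25, 6.16 and 7.16 against 5.89, 5.61 and 5.91, Nr1d2 read 7.35, 7.32 and 7.88 against 6.78, 6.59 and 7.16, and Dbp read 9.08, 9.14 and 9.36 against 8.93, 8.24 and 8.91. Model-labelled rat 3 had the highest array of each. The vehicle-labelled group lay at -0.72 ± 0.22, -0.67 ± 0.18 and -0.50 ± 0.19 of the model-labelled group (adjusted p = 0.217, 0.187 and 0.288), and without vehicle-labelled rat 5 Nr1d2 passed, at -0.83 (adjusted p = 0.0434). Sham spleens were between them or near the vehicle-labelled ones, at 5.83 ± 0.14 for Nr1d1, 7.15 ± 0.12 for Nr1d2 and 8.81 ± 0.23 for Dbp. Bhlhe40 had the same order, at 8.08 ± 0.21 in sham spleens, 8.54 ± 0.22 in those labelled model and 7.74 ± 0.03 in those labelled vehicle, and was at -0.80 ± 0.15 between the MCAO groups (adjusted p = 0.166). B cell and T cell markers were low in the spleen of vehicle-labelled rat 4, at -0.82 and -0.85 of the sham mean, against -0.19 to 0.29 and -0.31 to 0.35 in the other arrays. Exocrine pancreas markers were high in that of vehicle-labelled rat 2, at 1.17 against -0.12 to 0.43. Erythroid markers averaged -0.46 to 0.25 in sham spleens, -1.45 to -0.29 in those labelled model and -1.67 to 0.36 in those labelled vehicle. They were at -1.45 in model-labelled rat 3 and 0.36 in vehicle-labelled rat 4. Neutrophil markers averaged -0.59 to 0.51, -1.17 to -0.28 and -1.18 to -0.42 in the same order of groups. The part of these markers in the spleen values was not tested. Per3 was at -0.31 ± 0.15 and -0.30 ± 0.15 in the model-labelled and vehicle-labelled groups (adjusted p = 0.554 and 0.56), and Per2, Cry1, Cry2, Tef and Clock lay between -0.17 and 0.25 of sham. Of the 12 other loop genes none passed. At an unadjusted p under 0.05 they numbered 2, 1, 0 and 2 for model-labelled and vehicle-labelled against sham, both averaged and between the MCAO groups. The shares of all genes were 9.5%, 9.35%, 8.16% and 12.9% in that order. Nfil3 was at 0.36 ± 0.22 and 0.19 ± 0.22, and Bmal1 at 0.31 ± 0.19 and 0.18 ± 0.19.

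Whether the effects differed between tissues was tested over all 27 arrays. For both MCAO groups averaged against sham, none of the 10 genes differed by limma between brain and white cells, brain and spleen or white cells and spleen, where 0.896%, 0.641% and 0.4% of all genes did. Unadjusted, 3, 1 and 1 of the 10 were under 0.05, against 11.4%, 8.82% and 9.22% of all genes. For vehicle-labelled against model-labelled, 1 gene differed between brain and spleen (0.6% of all genes, and 0.4% in its direction), and 0 differed between brain and white cells (0.386%) or white cells and spleen (0.0276%). The unadjusted counts were 3, 3 and 1 for brain against white cells, brain against spleen and white cells against spleen, with 11.3%, 15.9% and 6.78% of all genes. The gene that differed was Nr1d2. Vehicle-labelled minus model-labelled, it stood at 0.37 ± 0.15 in brain and -0.67 ± 0.18 in spleen, and neither passed by limma (adjusted p = 0.324 and 0.187). The gap between them was 1.04 ± 0.23 (adjusted p = 0.0433). The call was lost without sham rat 3 or 4 (adjusted p = 0.0625 and 0.0674), without model-labelled rat 1, 2 or 3 (0.202, 0.0839 and 0.152), without vehicle-labelled rat 2 or 4 (0.21 and 0.139) and with quantile normalization (0.90, adjusted p = 0.053). Among the other loop genes the difference of Nfil3 from sham was larger in brain than in white cells, by 1.22 ± 0.28 (adjusted p = 0.0265), and larger than in spleen, by 1.18 ± 0.28 (adjusted p = 0.0447). The first held only without sham rat 3 or vehicle-labelled rat 2 or 5 and the second only without sham rat 3 or vehicle-labelled rat 2, among the 9 fits that left out a rat, with gaps of 0.87 to 1.55 and 0.94 to 1.61 and adjusted p up to 0.204 and 0.412. Noct differed between brain and spleen by 1.27 ± 0.29 (adjusted p = 0.0401) and Bhlhe40 between brain and white cells by 1.15 ± 0.27 (adjusted p = 0.0325). The first held only without sham rat 3, model-labelled rat 2 or vehicle-labelled rat 5 (adjusted p up to 0.29 otherwise), and the second only without a vehicle-labelled rat (up to 0.105 otherwise).

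Tef was the only clock gene called against sham, so the genes with the most similar profile were sought for it alone. Over the 9 group means, centred on sham within each tissue, Fam110b, Rbx1 and Oscp1 lay nearest, at root mean square distances of 0.0749, 0.075 and 0.0752 on the log2 scale. The centring sets the 3 sham means to 0, so the likeness rests on 6 differences.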

How the data were processed

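Per the submitters' processing notes the authors made the deposited values with RMA, which corrects background, normalizes arrays and summarizes probes; version, genome build and whether tissues were normalized together are not given in the sources used here. The scale is not named in the labels, and the range of the deposited values was read as log2. Of 27596 probes 15310 carried a single symbol; the probe with the highest mean stood for a gene, leaving 14506. Groups and rat numbers come from the sample titles, 3 arrays per group; nothing names a batch, so a batch coinciding with a group cannot be told apart from it. Limma 3.58.1 (R 4.3.3, lmFit and eBayes, 2-sided) was fitted to the 9 arrays of each tissue, to the 9 sham arrays between tissues and to all 27 arrays for differences between tissues, with Benjamini-Hochberg adjustment over all genes and calls at an adjusted p under 0.05. The fit was also run on simulated data with known shifts, drawn independently for each array. That checks the computation only and leaves out differences of region or rat between the real arrays. Per the titles and the design text a number within a group marks the same rat, and residuals of its tissues correlated with r from -0.058 to 0.517, above 0.1 in 15 of 27 pairs. All 10 clock genes are named, other loop genes where called or among Bmal1, Npas2, Bhlhe40, Bhlhe41 and Nfil3. The genes, the lists and the arrays set apart were chosen with earlier results of these data known. Precision is limited by 3 arrays per group. A search for promoter motifs was planned and not run, as no sequences were used here.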

Additional observations from a re-analysis of the deposited data

Results flagged for a closer look

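For Nr1d2, the gene of REV-ERB beta, the difference between vehicle-labelled and model-labelled rats was not the same in brain and spleen, and the test of that gap passed. Within a tissue the difference passed in neither, at 0.37 in brain and -0.67 in spleen (limma adjusted p = 0.324 and 0.187). The test of the gap does not show that the signs are opposite. The gap, brain minus spleen, was 1.04 (limma adjusted p = 0.0433) over all 27 arrays and 1.04 with the rat as a block (adjusted p = 0.0379). It held in 2 of the 9 fits that left out a rat, without sham rat 5 and without vehicle-labelled rat 5, with gaps of 0.86 to 1.31. Groups of 3 arrays were too small to look for outlying values of single genes, and the arrays set apart above stood out in marker lists.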

How the results depend on the processing

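For the 10 clock genes 2740 values were recomputed under the alternatives. Of these 2689 stayed on their side of the threshold, and they kept their direction or changed sign with a move smaller than the SD within groups. A call was lost in 27 and gained in 13. Another 11 uncalled values changed sign and moved by at least that SD, and no called value changed sign. In brain, the fit of all 27 arrays called 1 clock gene (Per1) with both MCAO groups averaged and 2 (Per1 and Tef) in the model-labelled group. Without sham rat 5 and vehicle-labelled rat 2 together these counts were 1 (Tef) and 2 (Per1 and Tef). The model-labelled count was 0 after quantile normalization and 0 with a variance trend and robust prior. The same numbers in different groups mark different rats, and their deviations correlated at -0.474 to 0.377, above 0.1 in 2 of 12 pairs. With the replicate number as a block the model-labelled count was 0 (Tef -0.66, limma adjusted p = 0.547), and the calls of Nfil3, Noct and Btrc were lost as well. With the rat as a block across tissues, Nr1d1 (-0.38, adjusted p = 0.0387) was added between white cells and spleen of sham rats, and no other call on the 10 clock genes changed. The difference between brain and spleen for vehicle-labelled against model-labelled had 0 calls after quantile normalization. Leaving out 1 array or rat at a time gave 0 to 1 calls for that difference, 0 to 1 in model-labelled brains, 0 to 2 in vehicle-labelled white cells, 0 to 1 between the MCAO groups in spleen, and 2 to 3 between white cells and spleen of sham rats. Calls between sham brain and the other tissues changed as well, those of Cry2 against white cells and of Clock, Per1 and Per2 against spleen. The cause of these changes was not tested. Precision is limited by 3 arrays per group.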
